A study of Mus musculus with 3 samples.

Results

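The killer cell lectin-like receptor (Klr) genes were taken as every gene of the single-cell tables whose symbol is Klr followed by a lower-case letter and a digit. This rule gave 26 of 22954 genes, with 11 Klra, 5 Klrb, 3 Klrc, 2 Klrg, 2 Klri and 1 each of Klrd, Klre and Klrk. All 26 were above 0 in at least 10 cells, and 5309 of 19622 cells had at least 1 of them above 0. The cells came from the dissociated lungs of 3 wild-type female C57BL6/J mice, 1 mouse per group, all given 13 Gy to the thorax and sampled 5 months later. The CONV mouse was irradiated at the conventional dose rate, and the FLASH mouse at the ultra-high dose rate. The CONV AsiDNA mouse had the conventional irradiation after injections of AsiDNA, a short double-stranded DNA that acts as a decoy of DNA breaks, at 100 mg/kg on the 2 days before and at 200 mg/kg on the day of irradiation. No library of an unirradiated mouse was analysed here, so every value below is from an irradiated lung.

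Most of the family is encoded in the natural killer gene complex. The genes make C-type lectin-like receptors of the cell surface, by which NK cells read the state of other cells. Inhibitory members carry tails that recruit the phosphatases SHP-1 and SHP-2, whereas activating members signal through the adaptors DAP12 or DAP10. In the mouse, the Klra genes (the Ly49 receptors) do the work that the unrelated killer immunoglobulin-like receptors do in humans, and single NK cells switch on different sets of them.

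The value used here is the adjusted count, the whole number behind each log value of the tables. A share is the percentage of cells of a class above 0, with an exact 95% Clopper-Pearson interval that covers only the sampling of cells, and a level (adjusted CPM) is the part of a gene in 1000000 adjusted counts summed over a class. The CONV library held 6372 cells, the CONV AsiDNA library 6983 and the FLASH library 6267, and their median cells had 3450, 3678 and 3621 adjusted counts. Between 9 and 17 cell barcodes were shared by a pair of libraries. With 1 mouse per group no test between groups was possible, and treatment, mouse and library cannot be told apart. Some genes stood at 0 in whole cell classes of the tables. Fth1 and Ftl1, the ferritin genes that every cell uses, were listed at 0 in all NK cells of the 3 libraries, and for that reason a member without positive cells is described only as listed at 0.

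All 26 genes lie on chromosome 6 and are protein coding in the GENCODE vM21 annotation of GRCm38. Klrg2 (chr6:38625693-38637242) and Klrg1 (chr6:122270596-122282882) lie outside the main cluster, which runs from Klrb1a (chr6:128609227-128623533) through Klrd1 (chr6:129591782-129598775) and Klrk1 (chr6:129610323-129623864) to Klra1 (chr6:130363917-130386874). Klra2 (chr6:131219223-131247362) sits apart from the other 10 Klra genes. The Klra and Klrc genes are close copies of each other, and the tables do not say how reads that fit several copies were counted, so values of single Klra and Klrc genes are uncertain to that extent. The annotation also tags transcripts of Klrb1b and Klrb1c as overlapping another locus.

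RefSeq promoter windows of GRCm38.p6, each with 250 bases before and 50 after a gene start, were matched for 23 members. The members without a window are Klrg1, Klrd1 and Klri2. The windows of 2 Klra genes of NK cells (Klra4 and Klra8), 2 Klra genes of myeloid cells (Klra2 and Klra17) and Klrk1 are shown because the expression data separate them by cell class. Capitals mark GCAATTTCCTC, a longest word held by at least 8 of the 11 Klra windows, AGGAGGGGC, the longest such word beside it, and TGTGGT and TGAGTCA, the core words of Runx and AP-1 factors. The windows are on the minus strand at chr6:130067222-130067521 (Klra4), chr6:130129849-130130148 (Klra8), chr6:131247313-131247612 (Klra2), chr6:129876623-129876922 (Klra17) and chr6:129623815-129624114 (Klrk1).
Klra4: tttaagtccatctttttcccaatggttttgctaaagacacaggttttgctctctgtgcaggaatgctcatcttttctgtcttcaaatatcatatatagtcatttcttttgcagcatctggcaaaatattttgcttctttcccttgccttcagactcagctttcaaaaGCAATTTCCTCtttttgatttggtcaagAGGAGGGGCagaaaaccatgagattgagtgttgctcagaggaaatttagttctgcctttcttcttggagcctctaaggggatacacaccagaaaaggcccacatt
Klra8: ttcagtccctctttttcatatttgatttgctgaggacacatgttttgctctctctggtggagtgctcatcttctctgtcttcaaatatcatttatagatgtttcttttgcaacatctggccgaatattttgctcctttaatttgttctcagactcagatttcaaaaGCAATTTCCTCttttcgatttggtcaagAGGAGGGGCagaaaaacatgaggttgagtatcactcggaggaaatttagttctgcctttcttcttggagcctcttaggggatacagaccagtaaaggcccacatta
Klra2: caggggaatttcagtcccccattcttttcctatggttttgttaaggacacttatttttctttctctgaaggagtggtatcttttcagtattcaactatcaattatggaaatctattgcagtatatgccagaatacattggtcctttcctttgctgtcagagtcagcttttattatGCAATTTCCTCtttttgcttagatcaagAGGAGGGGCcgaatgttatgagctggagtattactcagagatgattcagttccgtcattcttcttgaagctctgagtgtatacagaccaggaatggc
Klra17: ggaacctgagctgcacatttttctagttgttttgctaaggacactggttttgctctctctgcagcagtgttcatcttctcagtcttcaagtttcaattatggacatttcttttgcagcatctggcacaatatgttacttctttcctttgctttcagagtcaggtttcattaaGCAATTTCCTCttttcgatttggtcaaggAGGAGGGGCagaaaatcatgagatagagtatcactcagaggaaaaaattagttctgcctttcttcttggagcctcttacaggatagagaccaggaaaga
Klrk1: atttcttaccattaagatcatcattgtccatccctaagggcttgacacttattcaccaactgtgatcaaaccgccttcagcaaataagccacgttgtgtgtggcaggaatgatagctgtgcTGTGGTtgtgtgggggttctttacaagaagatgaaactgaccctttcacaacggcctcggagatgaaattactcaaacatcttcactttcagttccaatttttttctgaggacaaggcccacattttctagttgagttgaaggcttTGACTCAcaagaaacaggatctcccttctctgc

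The words were searched on both strands, and no marked words overlap in the windows shown. GCAATTTCCTC was present in 8 of 11 Klra windows, those of Klra17, Klra5, Klra6, Klra4, Klra8, Klra9, Klra3 and Klra2, and in 0.0578% of all 32851 windows. AGGAGGGGC was present in the same 8 windows and in 1.78% of all windows. Both words were picked for being shared by the Klra windows, so their frequency there is a description. Both myeloid genes, Klra2 and Klra17, hold them, as do 6 other Klra genes, while the windows of Klra7, Klra1 and Klra10 hold neither. TGTGGT was present in 8 of 23 member windows (Klrb1a, Klrb1c, Klre1, Klrk1, Klrc3, Klrc2, Klrc1 and Klra1) and in 16.8% of all windows. TGAGTCA was present in Klrk1, Klrc3 and Klrc2 and in 5.2% of all windows. A match is a string of letters and no measure of binding.

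Cell classes were set by marker genes that include no Klr gene. NK cells had at least 3 of Ncr1, Eomes, Prf1, Gzma, Il2rb, Txk and Nkg7 above 0 and no Cd3 gene. This gate held 85 CONV, 297 CONV AsiDNA and 220 FLASH cells, with medians of 2942, 3124 and 3013 adjusted counts. Although the gate did not use the family, 5 members (Klre1, Klrb1c, Klra4, Klra8 and Klra9) were among the 10 genes that most set the gated cells apart from the rest. All 12 alveolar macrophage markers and all 6 neutrophil markers were listed at 0 in the NK cells of each library. B cells, with median cells of 2834, 2964 and 3045 adjusted counts after CONV, CONV AsiDNA and FLASH, served as the class that should lack the family. Among 4069 B cells the highest member was Klrb1, with 7 cells above 0 (0.172%), and 13 members were listed at 0.

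For 21 of 26 members the NK gate held more positive cells than any other class, and the share of all genes with this pattern is not given. Some of these leads were small. The NK gate held 28.3% of the positive cells of Klrb1b and 28.7% of those of Klrd1. Klrb1b had higher shares in type 1 and type 2 conventional dendritic cells (78.5% and 71.3%). Klra5 had 8 positive NK cells and 7 positive type 1 dendritic cells. Every NK cell had at least 1 member above 0, and the median number of members per NK cell was 8 after CONV and 10 in both CONV AsiDNA and FLASH. With the 3 libraries pooled, Klrd1 and Klrk1 were each above 0 in 92.7% of NK cells, Klrb1c in 92% and Klre1 in 88.2%. Klra8 was the member most restricted to NK cells, with 286 of its 298 positive cells in the gate (96%), followed by Klra4 with 258 of 272 (94.9%). The 5 members with more positive cells elsewhere were Klra2 (alveolar macrophages), Klra17 (neutrophils and plasmacytoid dendritic cells), Klri1 (type 2 dendritic cells), Klra6 (CD8 effector memory T cells) and Klrg2 (epithelial cells). Klra2, Klra17 and Klrg2 were listed at 0 in all 602 NK cells.

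**Figure D1:**
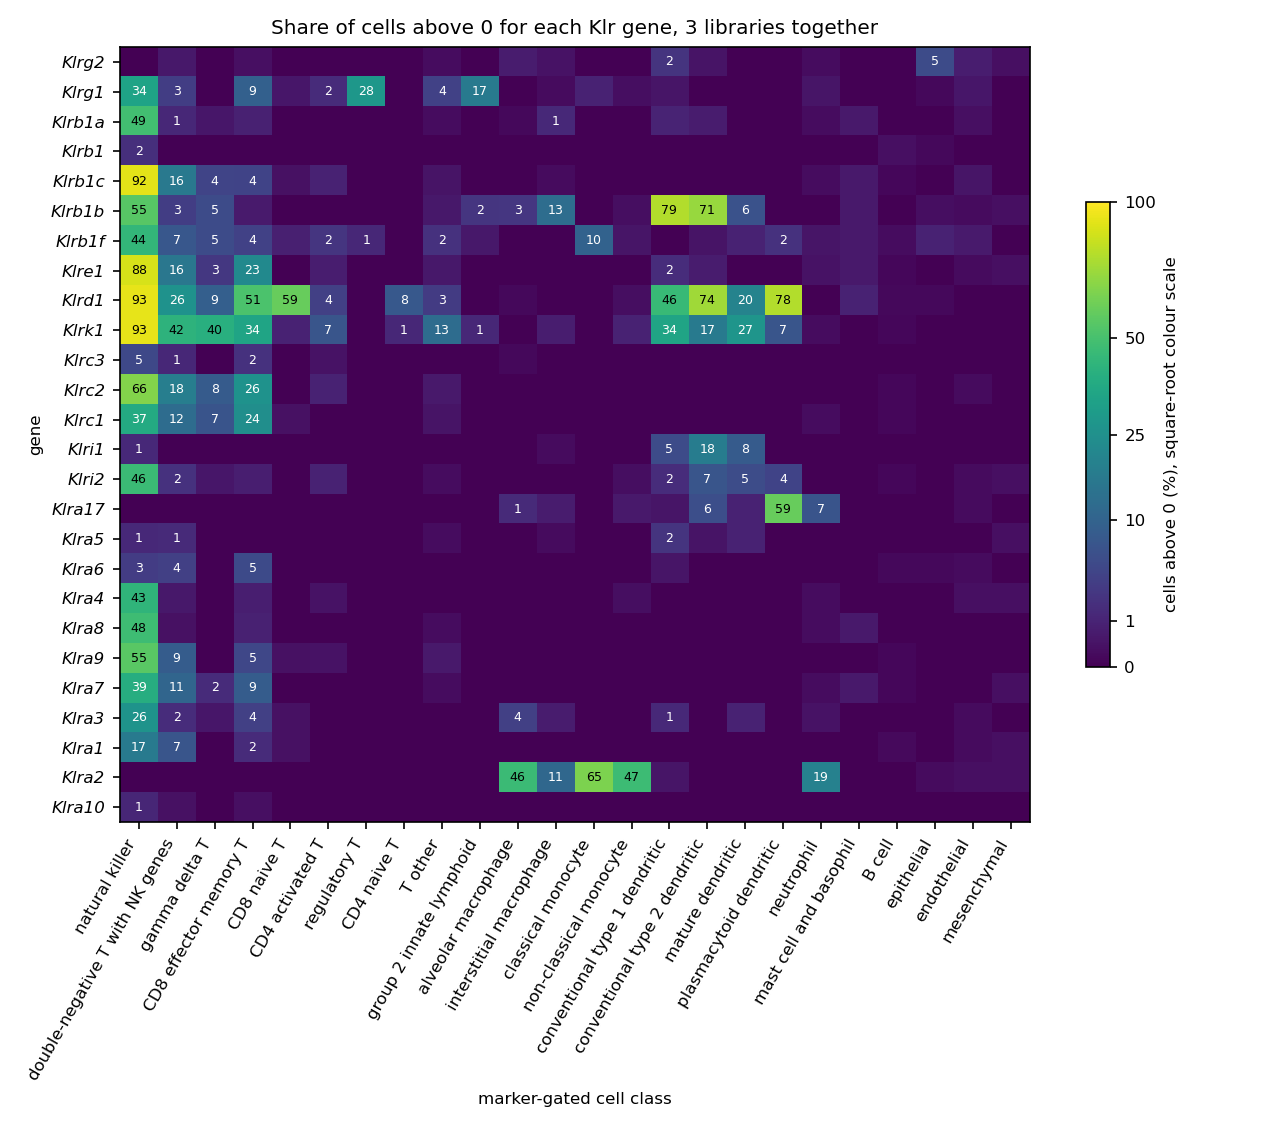
Share of cells above 0 (%) for each of the 26 Klr genes (rows) in each marker-gated cell class (columns), with the 3 libraries pooled; colour is on a square-root scale and numbers are printed from 1% upwards. Most of the family fills the NK column (Klrd1 and Klrk1 at 92.7%). Klra2 is highest in cells gated on classical monocyte markers (64.5%), non-classical monocytes (47.2%) and alveolar macrophages (46.5%). Klra17 is highest in plasmacytoid dendritic cells (59%) and Klrb1b in type 1 and type 2 conventional dendritic cells (78.5% and 71.3%).

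The comparison between libraries asked whether the NK receptors differ in the irradiated lung according to the dose rate and the decoy. The summed level of the 26 members in NK cells was 8139 adjusted CPM after CONV, 11047 after CONV AsiDNA and 10892 after FLASH. CONV was thus lowest, and the other 2 were close together. The 20 members that reached 20 adjusted counts over all NK cells were compared by the log2 ratio of level + 10 adjusted CPM. The other 6 were Klrg2, Klra17 and Klra2, listed at 0, and Klrb1, Klri1 and Klra10, with 11, 8 and 7 positive NK cells. In CONV, 5 of these 20 were more than 2-fold below CONV AsiDNA (Klrg1, Klre1, Klrc3, Klra8 and Klra1), beside 11.9% of all 6665 genes compared, and 1 was above (Klra5), beside 3.45% of all genes. Within subsets of the gate chosen after the values had been seen, the count below CONV AsiDNA was 2 of 19 among cells with Eomes above 0, beside 19.6% of all genes, and 2 of 20 among cells with Itga1, Cxcr6, Il7r and Rora at 0, beside 16.3%, so the members' share was then below that of all genes. Against FLASH, 3 members were below in CONV (Klrg1, Klre1 and Klra6), beside 12.4%, and 2 were above (Klrb1b and Klra5), beside 3.8%. Between CONV AsiDNA and FLASH, 1 member was above (Klra1), beside 2.4%, and 0 were below, beside 1.65%. The minimum sum was taken over the 3 libraries for all genes, so a gene near 0 in CONV could pass through the others. Klrc3 and Klra6 were each at 4.01 adjusted CPM in CONV, with sums of 29 and 25, and Klra5 had a sum of 24. The calls of Klrc3, Klra6 and Klra5 rest on few counts and are left as values.

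The 20 members had a median log2 ratio of -0.48 when CONV was set over CONV AsiDNA, where the median of all genes compared was -0.13. Set over FLASH, the members had a median of -0.48 and all genes a median of -0.17. The median member lay lower in CONV than the median gene. Of the 20 members, 16 and 17 were below 0, beside 59.6% and 60.2% of all genes. The members are not independent of each other, since the Klra and Klrc genes are close copies and all were read in the same cells. The CONV gate also differed in makeup, as described below. These medians and counts are therefore left as descriptions, and no conclusion about the family is drawn from them. Set between CONV AsiDNA and FLASH, the median was 0.08 for the members and -0.03 for all genes. The first 2 comparisons share the CONV library and are not independent of each other.

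**Figure D2:**
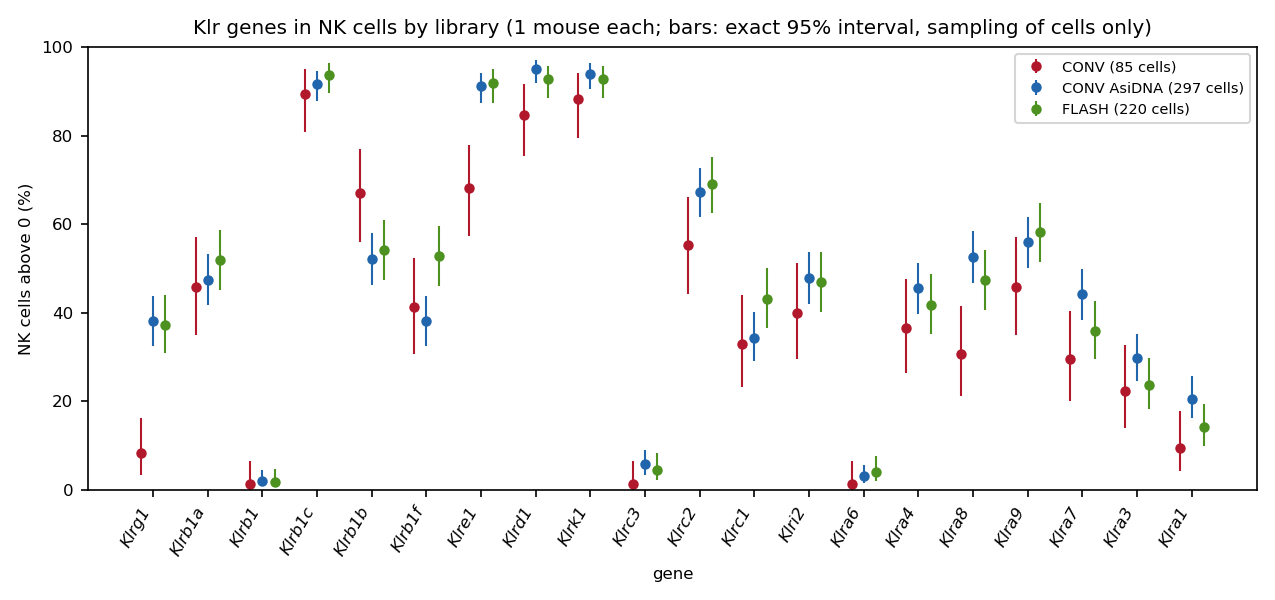
Share of NK cells above 0 (%) for the 20 Klr genes with at least 10 positive NK cells, in each library (1 mouse each; points are shares and bars exact 95% intervals for the sampling of cells). The CONV interval lies below both others for Klrg1 (8.24% against 38% and 37.3%) and Klre1 (68.2% against 91.2% and 91.8%).

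Klrg1, an inhibitory receptor that binds cadherins and marks mature NK cells, was above 0 in 7 of 85 NK cells after CONV (8.24%, 3.38 to 16.2), 113 of 297 after CONV AsiDNA (38%, 32.5 to 43.8) and 82 of 220 after FLASH (37.3%, 30.9 to 44). CONV was low, with an interval apart from those of both other libraries, which overlapped each other. Its level was 60.2 adjusted CPM after CONV, 252 after CONV AsiDNA and 234 after FLASH. The log2 ratio of CONV was -1.90 to CONV AsiDNA and -1.80 to FLASH. With every cell thinned to 1000 adjusted counts, the shares were 4.71%, 20.9% and 18.2%.

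Klre1, which pairs with the products of the Klri genes, was above 0 in 58 of 85 NK cells after CONV (68.2%, 57.2 to 77.9), 271 of 297 after CONV AsiDNA (91.2%, 87.4 to 94.2) and 202 of 220 after FLASH (91.8%, 87.4 to 95.1). The CONV interval was again below both others, with a log2 ratio of -1.13 to CONV AsiDNA and -1.05 to FLASH. Of the 20 members with at least 10 positive NK cells, Klrg1 and Klre1 were the 2 whose CONV interval was below both others, beside 2.86% of all 7837 genes with at least 10 positive NK cells, and 0 of 20 had a CONV interval above both others, beside 0.447%. These 20 members include Klrb1 and leave out Klra5, unlike the 20 compared by level. Klri2, the activating partner of Klre1, was above 0 in 40% of NK cells after CONV, 47.8% after CONV AsiDNA and 46.8% after FLASH, with overlapping intervals.

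Klrk1, which encodes the activating receptor NKG2D, was above 0 in 88.2% of NK cells after CONV (79.4 to 94.2), 93.9% after CONV AsiDNA (90.6 to 96.4) and 92.7% after FLASH (88.5 to 95.8). Klrd1 (CD94), the partner chain of the NKG2 receptors, was above 0 in 84.7% after CONV (75.3 to 91.6), 94.9% after CONV AsiDNA (91.8 to 97.1) and 92.7% after FLASH (88.5 to 95.8). The shares of Klrk1 overlapped across the 3 libraries, and for Klrd1 the CONV interval fell just below that of CONV AsiDNA but overlapped that of FLASH. Thinned to 1000 adjusted counts, the Klrd1 shares were 57.6%, 68% and 56.8%, with overlapping intervals for CONV and CONV AsiDNA. Among the partners of CD94, which together bind the nonclassical class I molecule Qa-1, Klrc1 (the inhibitory NKG2A) was above 0 in 32.9% after CONV, 34.3% after CONV AsiDNA and 43.2% after FLASH. Klrc2 (NKG2C) was above 0 in 55.3%, 67.3% and 69.1%. Klrc3 (NKG2E) was rare, with 1, 17 and 10 positive NK cells in CONV, CONV AsiDNA and FLASH.

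Of the NKR-P1 genes, Klrb1c, which encodes the antigen used to identify NK cells in C57BL/6 mice, was above 0 in 89.4% of NK cells after CONV, 91.6% after CONV AsiDNA and 93.6% after FLASH. Klrb1b, an inhibitory receptor for Clec2d, was above 0 in 67.1% after CONV (56 to 76.9), 52.2% after CONV AsiDNA (46.3 to 58) and 54.1% after FLASH (47.3 to 60.8). It was the member of the NKR-P1 group that was highest in CONV, where its level was 843 adjusted CPM against 426 after CONV AsiDNA and 401 after FLASH, although the intervals of the shares overlapped. At 1000 adjusted counts per cell, its shares were 45.9% (35 to 57), 25.9% (21 to 31.3) and 25% (19.4 to 31.3), with the CONV interval above both others. Klrb1f was above 0 in 41.2% after CONV (30.6 to 52.4), 38% after CONV AsiDNA (32.5 to 43.8) and 52.7% after FLASH (45.9 to 59.5). Of the 20 members with at least 10 positive NK cells, only Klrb1f had CONV AsiDNA and FLASH intervals apart, beside 4.77% of all genes. Thinned to 1000 adjusted counts, these intervals overlapped, at 17.8% and 21.4%. Klrb1a was above 0 in 45.9%, 47.5% and 51.8%, and Klrb1 in 1, 6 and 4 cells after CONV, CONV AsiDNA and FLASH.

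The activating Ly49 genes Klra4 (Ly49D) and Klra8 (Ly49H, the receptor for a cytomegalovirus protein) were both lowest in CONV and highest in CONV AsiDNA. Klra8 was above 0 in 30.6% of NK cells after CONV (21 to 41.5), 52.5% after CONV AsiDNA (46.7 to 58.3) and 47.3% after FLASH (40.5 to 54.1). Klra4 was above 0 in 36.5% after CONV (26.3 to 47.6), 45.5% after CONV AsiDNA (39.7 to 51.3) and 41.8% after FLASH (35.2 to 48.6). For Klra8 the CONV interval was below that of CONV AsiDNA and overlapped that of FLASH, and all 3 intervals overlapped for Klra4. When thinned likewise, Klra4 was at 23.5% (15 to 34), 39.4% (33.8 to 45.2) and 31.8% (25.7 to 38.4), and Klra8 at 18.8% (11.2 to 28.8), 38.7% (33.1 to 44.5) and 35% (28.7 to 41.7). The log2 ratio of CONV over CONV AsiDNA was -1.14 for Klra8 and -0.69 for Klra4.

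The Ly49 genes taken as inhibitory in NK cells were Klra9, Klra7, Klra3, Klra1, Klra5, Klra6 and Klra10. Klra9 (Ly49I) was above 0 in 45.9%, 55.9% and 58.2% of NK cells after CONV, CONV AsiDNA and FLASH. Klra7 (Ly49G) was above 0 in 29.4%, 44.1% and 35.9%, and Klra3 (Ly49C) in 22.4%, 29.6% and 23.6%. For each of these 3 genes CONV had the lowest share, with overlapping intervals. For Klra3 this order did not hold by level, at 261, 287 and 242 adjusted CPM, or when thinned to 1000 adjusted counts, at 17.6%, 17.5% and 12.3%. Klra1 (Ly49A) was above 0 in 9.41% after CONV (4.15 to 17.7), 20.5% after CONV AsiDNA (16.1 to 25.6) and 14.1% after FLASH (9.78 to 19.4), again with overlapping intervals. Thinned, Klra1 was at 3.53% (0.734 to 9.97), 13.8% (10.1 to 18.3) and 8.18% (4.92 to 12.6), with the CONV and CONV AsiDNA intervals just apart. Klra5 and Klra6 were rare, with 8 and 19 positive NK cells in all, and Klra10 had 7. The difference of Klra5, past 2-fold in CONV, rested on 2 positive CONV cells of 85, and that of Klra6 on 1. Klra5, Klra6 and Klra10 are therefore left as values.

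Single NK cells carried different sets of Klra genes. The mean number of Klra genes above 0 per NK cell was 1.78 after CONV (SD 1.43 over cells), 2.53 after CONV AsiDNA (SD 1.44) and 2.28 after FLASH (SD 1.5). Among the 24, 173 and 120 NK cells with Eomes above 0 the means were 2.62, 2.83 and 2.62, and CONV did not lie below FLASH. The highest number was 5 after CONV and 6 in the other libraries. NK cells without any Klra gene made up 28.2% after CONV (19 to 39), 11.1% after CONV AsiDNA (7.77 to 15.2) and 15.9% after FLASH (11.3 to 21.4). The CONV interval was above that of CONV AsiDNA and overlapped that of FLASH. At least 1 activating Ly49 gene was above 0 in 45.9% of NK cells after CONV, 67.3% after CONV AsiDNA and 61.4% after FLASH. At least 1 inhibitory gene was above 0 in 69.4%, 85.9% and 80% of the cells. The 85, 297 and 220 NK cells held 32, 67 and 58 distinct sets, numbers that also depend on how many cells were sampled.

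**Figure D3:**
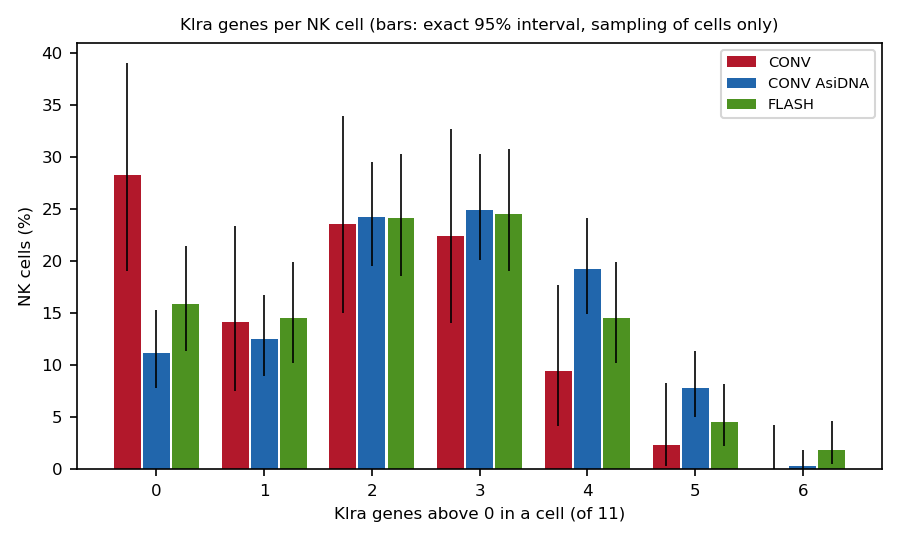
Percentage of NK cells (vertical axis) by the number of the 11 Klra genes above 0 in the cell (horizontal axis) in each library, with exact 95% intervals for the sampling of cells. Cells with none make up 28.2% after CONV, 11.1% after CONV AsiDNA and 15.9% after FLASH, and cells with 4 make up 9.41%, 19.2% and 14.5%.

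The 2 activating Ly49 genes tended to be found in the same cells. Klra8 was above 0 in 58.1% of Klra4-positive and 14.8% of Klra4-negative NK cells in CONV, in 67.4% and 40.1% after CONV AsiDNA, and in 66.3% and 33.6% after FLASH. Klra8 was less frequent beside the inhibitory NKG2A gene. It was above 0 in 28.6% of Klrc1-positive and 31.6% of Klrc1-negative cells in CONV, in 37.3% and 60.5% after CONV AsiDNA, and in 34.7% and 56.8% after FLASH. The difference thus had 1 direction in the 3 libraries but was small in CONV. Klra9, an inhibitory gene, was in Klrc1-positive and Klrc1-negative cells above 0 in 39.3% and 49.1% after CONV, 55.9% and 55.9% after CONV AsiDNA and 55.8% and 60% after FLASH. Its shares lay closer together than those of Klra8 after CONV AsiDNA and FLASH, and farther apart than those of Klra8 in CONV. The cells of a library share its depth and its adjustment, and these shares are given as descriptions.

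The NK gate of CONV also differed in genes outside the family. Eomes, a transcription factor of conventional NK cells and a gate marker, was above 0 in 28.2% of the gated cells after CONV, 58.2% after CONV AsiDNA and 54.5% after FLASH. In the same order Ncr1 was at 70.6%, 85.2% and 84.1%, Prf1 at 65.9%, 87.9% and 91.4%, and Gzma at 71.8%, 89.6% and 87.3%. The other gate markers, Il2rb, Txk and Nkg7, were at 88.6% or more in each library. Fewer CONV cells thus had Eomes, Ncr1, Prf1 or Gzma, which limits every comparison of NK cells between libraries. Zeb2, which drives late NK maturation, was above 0 in 28.2%, 59.3% and 67.3%, and S1pr5, a receptor for exit from tissue, in 9.41%, 26.3% and 23.6%. Genes typical of tissue-resident and helper-like innate lymphoid cells went the other way, with Itga1 at 9.41%, 0.673% and 0% and Rora at 24.7%, 8.75% and 8.64%. The CONV gate therefore held a smaller share of cells with the genes of mature NK cells and a larger share with those of resident lymphoid cells. Values of the members were also taken within subsets of the gate that were chosen after the values had been seen.

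In NK cells with Itga1, Cxcr6, Il7r and Rora all at 0, Klrg1 was above 0 in 10.5% of 57 cells after CONV (3.96 to 21.5), 41.3% of 259 after CONV AsiDNA (35.3 to 47.6) and 41.7% of 187 after FLASH (34.6 to 49.1). In NK cells with Eomes above 0, it was above 0 in 8.33% of 24 cells after CONV (1.03 to 27), 35.3% of 173 after CONV AsiDNA (28.2 to 42.9) and 34.2% of 120 after FLASH (25.8 to 43.4). Klrg1 was lowest in CONV within both subsets, with an interval below both others in the first, and in the second below that of CONV AsiDNA but overlapping that of FLASH. In the cells with Eomes above 0, Klra8 was above 0 in 54.2%, 56.1% and 57.5%, and Klra4 in 58.3%, 52% and 50%. Klra8 was thus close across libraries in these cells, of which CONV had only 24. In the cells with Eomes at 0, however, it was above 0 in 21.3% after CONV (11.9 to 33.7), 47.6% after CONV AsiDNA (38.5 to 56.7) and 35% after FLASH (25.7 to 45.2), and in the cells with the 4 resident genes at 0 in 42.1%, 57.5% and 53.5%. It was lowest in CONV in both of these subsets, and the CONV and CONV AsiDNA intervals were apart in the first.

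Among cells with Eomes above 0, Klre1 was at 87.5% after CONV (67.6 to 97.3), 97.1% after CONV AsiDNA (93.4 to 99.1) and 94.2% after FLASH (88.4 to 97.6), with overlapping intervals. Among cells with Eomes at 0 it was at 60.7% (47.3 to 72.9), 83.1% (75.3 to 89.2) and 89% (81.2 to 94.4). Among cells with the 4 resident genes at 0 it was at 80.7% (68.1 to 90), 95% (91.6 to 97.3) and 95.2% (91.1 to 97.8). The CONV interval of Klre1 was below both others in the last 2 subsets. Klrb1b was enriched in the cells with any of these 4 genes above 0, at 89.3%, 76.3% and 78.8%, against 56.1%, 48.6% and 49.7% in the others. The latter cells had Klra4 in 50.9%, 49.8% and 48.1%, and the former in 7.14%, 15.8% and 6.06%. In each library Klrb1b was thus more frequent, and Klra4 less frequent, in the cells with a resident gene.

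**Figure D4:**
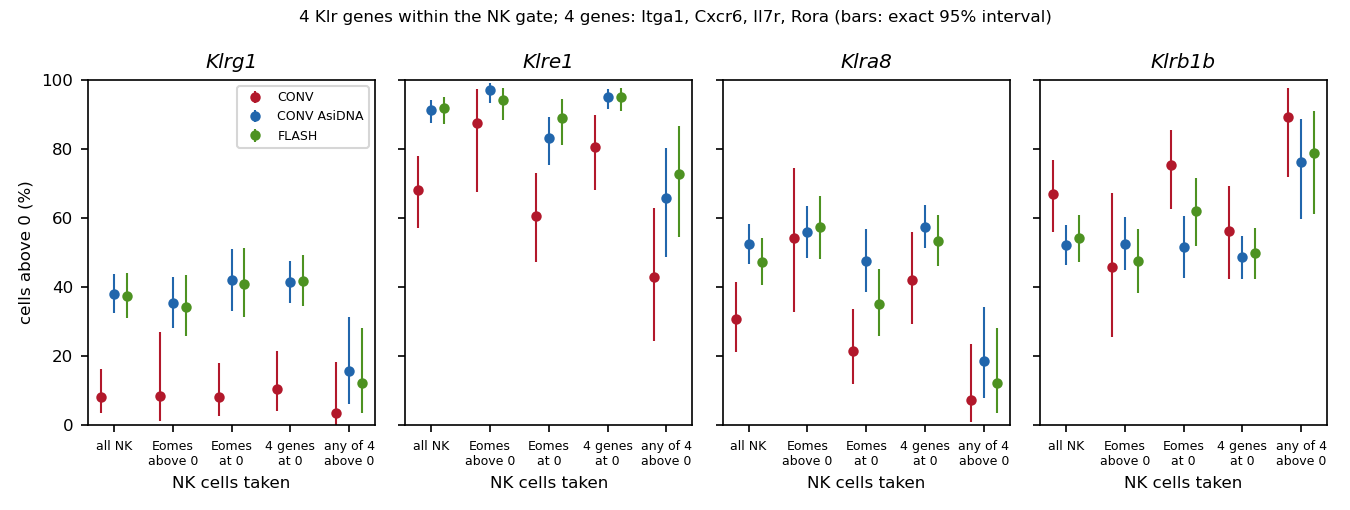
Share of NK cells above 0 (%) for Klrg1, Klre1, Klra8 and Klrb1b in the whole gate, in cells with Eomes above 0 or at 0, and in cells with Itga1, Cxcr6, Il7r and Rora all at 0 or any of them above 0 (points are shares, bars exact 95% intervals for the sampling of cells). Klrg1 is low in CONV in the whole gate (8.24%) and among cells with Eomes above 0 (8.33%), whereas Klra8 is at 54.2%, 56.1% and 57.5% in the latter and at 21.3%, 47.6% and 35% in cells with Eomes at 0.

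The genes through which the receptors signal were taken from lists chosen with earlier results known, and within each list the 2 genes with the largest log2 ratio are named. No list gene was past 2-fold between CONV AsiDNA and FLASH in NK cells, so the counts that follow are for CONV. They are set beside all genes compared, of which 11.9% were more than 2-fold below CONV AsiDNA and 12.4% below FLASH, and 3.45% and 3.8% above. Of 4 adaptors and signal chains, 0 were past 2-fold, with Cd247 at 76.3, 76.7 and 125 adjusted CPM and Hcst (DAP10) at 1124, 875 and 934 after CONV, CONV AsiDNA and FLASH. Tyrobp (DAP12), named outside this rule because the activating Ly49 receptors signal through it, was above 0 in 74.1% of NK cells in the CONV library, 91.2% after CONV AsiDNA and 90.9% after FLASH, while its level was 2561, 3058 and 3052 adjusted CPM, a log2 ratio of -0.26 and -0.25 to the others. Of 11 downstream kinases and linked genes, 2 were more than 2-fold below each of the other libraries, Syk and Plcg2. Syk was listed at 0 in all CONV NK cells against 16.5% after CONV AsiDNA and 21.4% after FLASH, and Plcg2 was at 4.01, 44.3 and 61.2 adjusted CPM. With lists this short, a count of 1 or 2 genes is no result about the list. Of 3 inhibitory phosphatases, Ptpn6 (SHP-1) was below each of the other libraries, at 0, 37.8 and 22.4 adjusted CPM, and Ptpn11 (SHP-2) was at 52.2, 25.9 and 34.3. Syk was 1 of 3 genes listed at 0 in CONV NK cells while above 0 in at least 15% of the NK cells of both other libraries, out of 2333 such genes. The ferritin genes stood at 0 in these cells too, and the part of the authors' adjustment in such zeros was not tested.

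Of 13 NK transcription factors, 12 could be compared, and Zeb2 was the 1 more than 2-fold below each of the other libraries in CONV, at 185, 444 and 525 adjusted CPM, which as 1 of 12 is a smaller share than the 11.9% and 12.4% of all genes. Tbx21, which drives NK maturation with Eomes, was at 108, 190 and 201. Of 12 maturation genes, 11 could be compared. S1pr5 was below both other libraries by more than 2-fold, at 32.1, 108 and 107 adjusted CPM, and Cx3cr1 was below FLASH, at 76.3, 134 and 183. These are 1 of 11 beside 11.9% of all genes, and 2 of 11 beside 12.4%. Of 13 cytotoxic effector genes, 12 could be compared and 1, Tnfsf10, was more than 2-fold above CONV AsiDNA (beside 3.45% of all genes), at 32.1, 9.72 and 11.9 adjusted CPM, while Ccl3 was at 329, 649 and 607. Of 14 other NK receptor genes, 7 could be compared and 0 were past 2-fold, with Cd160 and Ncr1 the farthest at log2 ratios of -0.77 and -0.60 to FLASH.

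Among the ligand genes, 0 of 6 class I genes were past 2-fold in NK cells. Farthest in any pair of libraries were H2-T22, at a log2 ratio of -0.46 for CONV over FLASH, and H2-T23. The latter was at -0.31 for CONV AsiDNA over FLASH and at -0.08 for CONV over FLASH. For CONV over CONV AsiDNA, H2-T22 was at -0.44 and H2-T23 at 0.22. Of the 5 Clr genes read, Clec2d and Clec2i could be compared and 0 were past 2-fold, and 0 of 5 NKG2D ligands and 0 of 3 cadherins reached the minimum sum in NK cells. The ligands were also read across all classes. H2-T23, which encodes Qa-1, the ligand of the CD94 receptors, had its highest shares in plasmacytoid dendritic cells, at 100%, 93.9% and 88.3%, and mature dendritic cells, at 79.2%, 71.2% and 74.1%. Endothelial cells followed, at 65.9% after CONV, 68.1% after CONV AsiDNA and 69.9% after FLASH. Clec2d, the ligand of Klrb1b, was above 0 in 83.3%, 88.1% and 74.1% of mature dendritic cells and in 67.2%, 81.5% and 81.1% of endothelial cells after CONV, CONV AsiDNA and FLASH. Mature dendritic cells were the class with the highest share after CONV and CONV AsiDNA, and endothelial cells after FLASH. Among the ligands of NKG2D, Ulbp1 was mainly found in alveolar macrophages, at 21.5%, 18.4% and 19.3%, and Raet1d, Raet1e and H60c stayed at or below 1.88% in every class and library. H60b was above 0 in 3.24%, 3.47% and 0% of CD3-positive cells with NK genes but neither Cd4 nor Cd8, and its highest share was 7.69%, from 2 of 26 regulatory T cells after FLASH. Cdh1, the E-cadherin that Klrg1 binds, was above 0 in 83% of epithelial cells after CONV, 87% after CONV AsiDNA and 85.7% after FLASH. It was also above 0 in 22.5% of alveolar macrophages after CONV AsiDNA and 12.1% after FLASH but in 0.197% after CONV. Type 2 conventional dendritic cells went the other way, with Cdh1 at 8.33% after CONV, 4.81% after CONV AsiDNA and 0% after FLASH. Among mast cells and basophils (113, 78 and 28 cells) the Cdh1 shares were 0%, 8.97% and 42.9%. FLASH stood apart in other genes of this class too, with B2m at 67.3%, 67.9% and 0% and H2-D1 at 73.5%, 75.6% and 7.14%. H2-T22 did not follow, at 0%, 7.69% and 7.14%. Whether this gate held the same kinds of cells in each library was not tested. Among plasmacytoid dendritic cells Cdh1 was at 0%, 6.06% and 13.3%.

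In CD8 effector memory T cells (168 CONV, 210 CONV AsiDNA and 207 FLASH cells), Klrd1 was above 0 in 43.5% after CONV (35.8 to 51.3), 59% after CONV AsiDNA (52.1 to 65.8) and 50.2% after FLASH (43.2 to 57.2). Klrk1 was above 0 in 37.5% (30.2 to 45.3), 31.9% (25.7 to 38.7) and 33.8% (27.4 to 40.7). Klrd1 was lower in CONV than in CONV AsiDNA, whose intervals were just apart, while Klrk1 overlapped throughout. The place of CONV for Klrk1 changed with Eomes. In cells of this class with Eomes above 0, CONV was lowest, at 23.9%, 35.3% and 31.7%. In those with Eomes at 0 it was highest, at 47.4%, 28.7% and 37%. Thinned to 1000 adjusted counts, the Klrd1 intervals overlapped and FLASH was lowest, at 24.4%, 34.3% and 21.7%. Klre1 was above 0 in 13.7% after CONV (8.88 to 19.8), 22.9% after CONV AsiDNA (17.4 to 29.1) and 29.5% after FLASH (23.4 to 36.2). Klrc1 was above 0 in 16.1%, 24.8% and 30.4%, and Klrc2 in 19%, 25.2% and 31.9%. These 3 genes were each lowest in CONV and highest in FLASH, and for Klre1 and Klrc1 the CONV and FLASH intervals were apart. Thinned to 1000 adjusted counts, Klre1 kept both features, at 4.17%, 11.4% and 17.9%. Klrc1 was then at 7.74%, 12.4% and 12.6% with overlapping intervals, and Klrc2 at 5.95%, 12.9% and 11.6%, with FLASH no longer highest. Of 13 members with at least 10 positive cells here, 0 had a CONV interval below both others (1.41% of all genes did) or above both others (0.7%), and 0 had CONV AsiDNA and FLASH intervals apart (2.88%).

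Among CD8 naive T cells Klrd1 was above 0 in 53.3% after CONV, 55.2% after CONV AsiDNA and 64.2% after FLASH, while no other member reached 10 positive cells among the 538 cells. CD3-positive cells with NK genes but neither Cd4 nor Cd8 (185, 144 and 164 cells) had Klrk1 in 36.2%, 44.4% and 46.3%, and Klrd1 in 28.1%, 23.6% and 25.6%. In this class 14 members were compared, and 0 had a CONV interval below both others (2.11% of all genes), above both others (0.271%) or intervals of CONV AsiDNA and FLASH that were apart (1.65%).

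Gamma delta T cells (158 CONV, 61 CONV AsiDNA and 46 FLASH cells) had Klrk1 in 27.2% of cells after CONV (20.4 to 34.9), 59% after CONV AsiDNA (45.7 to 71.4) and 58.7% after FLASH (43.2 to 73). Klrk1 was the 1 of 7 members with a CONV interval below both others, beside 0.93% of all genes, while 0 lay above both others (0.686%) and 0 had the other 2 intervals apart (0.747%). The makeup of the class differed between libraries, since 143 of the 158 CONV cells had Il17a, Cd163l1 or Trdv4 above 0, against 40 of 61 and 25 of 46. Within these cells, which have the genes of interleukin-17-producing gamma delta T cells, Klrk1 was above 0 in 25.9%, 57.5% and 56%. Klrk1 was thus low in CONV inside this subset too. Klrd1 was above 0 in 33.3% of 15, 28.6% of 21 and 52.4% of 21 of the other gamma delta T cells. In the subset it was listed at 0 in the 143 CONV and 40 CONV AsiDNA cells and above 0 in 2 of 25 FLASH cells (8%, 0.984 to 26). Klrk1 also had a CONV interval below both others in the remaining CD3-positive cells, at 6.94%, 17% and 16.8%, as 1 of 4 members beside 3.51% of all genes. None of these 4 had a CONV interval above both others (0.859%) or CONV AsiDNA and FLASH intervals apart (3.78%). In activated CD4 T cells Klrk1 was above 0 in 6.59%, 1.79% and 11.2%, and was the 1 of 3 members with CONV AsiDNA and FLASH intervals apart (1.71% of all genes), while 0 were below both others (1.37%) or above both others (0.2%) in CONV.

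Klrg1 was the member with the most positive cells among regulatory T cells and group 2 innate lymphoid cells. Among regulatory T cells it was above 0 in 12 of 33 after CONV (36.4%, 20.4 to 54.9), 3 of 20 after CONV AsiDNA (15%, 3.21 to 37.9) and 7 of 26 after FLASH (26.9%, 11.6 to 47.8). Among group 2 innate lymphoid cells it was above 0 in 7 of 96 after CONV (7.29%, 2.98 to 14.4), 25 of 94 after CONV AsiDNA (26.6%, 18 to 36.7) and 9 of 56 after FLASH (16.1%, 7.62 to 28.3). Klrg1 was hence lowest in CONV among the innate lymphoid cells, with an interval below that of CONV AsiDNA, and highest in CONV among the regulatory T cells, where the few cells gave overlapping intervals.

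In conventional dendritic cells of both types, Klrb1b, Klrd1, Klrk1 and Klri1 were the 4 members with the most positive cells. In type 1 conventional dendritic cells (47, 148 and 112 cells), Klrb1b was above 0 in 63.8% after CONV (48.5 to 77.3), 79.1% after CONV AsiDNA (71.6 to 85.3) and 83.9% after FLASH (75.8 to 90.2). Klrk1 was above 0 in 31.9%, 33.1% and 35.7%. Klrd1 was above 0 in 6 of 47 cells after CONV (12.8%, 4.83 to 25.7), 78 of 148 after CONV AsiDNA (52.7%, 44.3 to 61) and 56 of 112 after FLASH (50%, 40.4 to 59.6). Klrd1 was the 1 of 4 members with a CONV interval below both others, beside 0.843% of all genes, while 0 lay above both others (0.641%) and 0 had the other 2 intervals apart (2.65%). Of the defining genes of these cells, Xcr1 and Clec9a, both used by the gate, were above 0 in 83%, 93.2% and 93.8% and in 89.4%, 90.5% and 80.4%, and Flt3, which the gate did not use, was highest in CONV, at 85.1%, 59.5% and 71.4%. Fth1 and Ftl1 were both listed at 0 in the CONV cells of this class while above 0 in at least 26.4% in the other libraries, and the part of the authors' adjustment in the value of Klrd1 was not tested. Between 37.2% and 51.8% of the cells of the class also passed the gate of another lineage, and without them Klrd1 was at 17.2%, 55.9% and 40.7%. Thinned to 1000 adjusted counts, Klrd1 was at 6.38% (1.34 to 17.5), 16.2% (10.7 to 23.2) and 17.9% (11.3 to 26.2), and the intervals overlapped.

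In type 2 conventional dendritic cells (48, 187 and 127 cells), Klrd1 was above 0 in 75%, 77% and 68.5%, and Klrb1b in 62.5%, 72.7% and 72.4%. Klri1, the inhibitory partner of Klre1, was found mainly here, at 12.5%, 18.2% and 18.9% of the cells, while Klre1 itself was above 0 in 0, 2 and 0 of these cells. Klrk1 was above 0 in 29.2% after CONV (17 to 44.1), 18.2% after CONV AsiDNA (12.9 to 24.5) and 9.45% after FLASH (4.98 to 15.9). Klra17 was above 0 in 8.33% (2.32 to 20), 6.42% (3.36 to 10.9) and 3.94% (1.29 to 8.95). Both genes were highest in CONV, and for Klrk1 the CONV and FLASH intervals were apart. Thinned to 1000 adjusted counts, Klrk1 was at 4.17%, 4.81% and 3.94%, with overlapping intervals. Of 6 members compared, 0 had a CONV interval below (0.799% of all genes) or above both others (0.517%), and 0 had the other 2 intervals apart (3.93%).

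Mature dendritic cells (24, 59 and 27 cells) had Klrd1 in 20.8%, 16.9% and 25.9% and Klrk1 in 29.2%, 20.3% and 40.7%. Klrb1b, frequent in the other conventional dendritic cells, was above 0 in 7 of 59 mature cells in CONV AsiDNA (11.9%) and was listed at 0 after CONV and FLASH. Without cells that also passed another lineage gate, the share of Klrb1b in CONV AsiDNA was 6.12%. Plasmacytoid dendritic cells were few, with 7 after CONV, 33 after CONV AsiDNA and 60 after FLASH. They had Klra17 (Ly49Q, a receptor of plasmacytoid and myeloid cells) in 57.1% (18.4 to 90.1), 63.6% (45.1 to 79.6) and 56.7% (43.2 to 69.4). The intervals of Klra17 were wide and overlapped, and without the cells that also passed the gate of another lineage the CONV share was 25% of 4 cells. Klrd1 was above 0 in 57.1%, 87.9% and 75% of the same cells.

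Klra2 (Ly49B) was the member with the most positive cells in alveolar macrophages, non-classical monocytes, the cells gated on classical monocyte markers and neutrophils. In alveolar macrophages it was above 0 in 368 of 1014 cells after CONV (36.3%, 33.3 to 39.3), 374 of 663 after CONV AsiDNA (56.4%, 52.5 to 60.2) and 261 of 481 after FLASH (54.3%, 49.7 to 58.8). Klra2 was the 1 of 5 members with a CONV interval below both others, beside 14.9% of all genes, which is a high background for this rule. In non-classical monocytes (47, 259 and 361 cells) Klra2 was above 0 in 36.2% (22.7 to 51.5), 51% (44.7 to 57.2) and 46% (40.8 to 51.3). In the cells gated on classical monocyte markers (12, 53 and 45 cells), whose leading genes include the granule genes Prtn3 and Elane and which are therefore given no firm name, it was above 0 in 41.7%, 69.8% and 64.4%. In neutrophils, of which 58.3% to 66% also passed the gate of another lineage, the shares were 17%, 23.5% and 17.2%, and in interstitial macrophages 12.4%, 11.4% and 9.45%. Klra2 was lowest in CONV in the first 4 of these 5 classes, with overlapping intervals outside alveolar macrophages, and highest in CONV in interstitial macrophages. In the latter Klrb1b had more positive cells than Klra2, at 13.5% of 468 cells after CONV (10.5 to 16.9), 13.9% of 431 after CONV AsiDNA (10.8 to 17.6) and 10.7% of 328 after FLASH (7.55 to 14.5), with overlapping intervals. In alveolar macrophages Klrb1b was above 0 in 28, 12 and 15 cells.

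Alveolar macrophages of CONV had Gpnmb, a gene of lipid-laden and profibrotic macrophages, above 0 in 704 of 1014 cells, against 248 of 663 after CONV AsiDNA and 231 of 481 after FLASH. Klra2 was less frequent beside Gpnmb in each library, at 29.5% against 51.6% after CONV, 45.6% against 62.9% after CONV AsiDNA and 49.8% against 58.4% after FLASH. Among the Gpnmb-negative cells CONV was nearer to the others than among the Gpnmb-positive cells. Klra3 was above 0 in 76 CONV alveolar macrophages (7.5%, 5.95 to 9.29) and listed at 0 in the 663 CONV AsiDNA and 481 FLASH cells. Klra17 was above 0 in 29 (2.86%), 0 and 1. Klra3 and Klra17 were the 2 of 5 members with a CONV interval above both others, beside 8.72% of all genes, and 0 had the other 2 intervals apart, beside 7.06%. Nearly all of these Klra3 values were a single adjusted count, and at a minimum of 2 adjusted counts the share in CONV was 0.789%. When thinned to 1000 adjusted counts, Klra3 was at 1.08% in CONV (0.543 to 1.93) and Klra17 at 0.296% (0.0611 to 0.862), and these intervals overlapped those of the other libraries, where both were listed at 0.

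**Figure D5:**
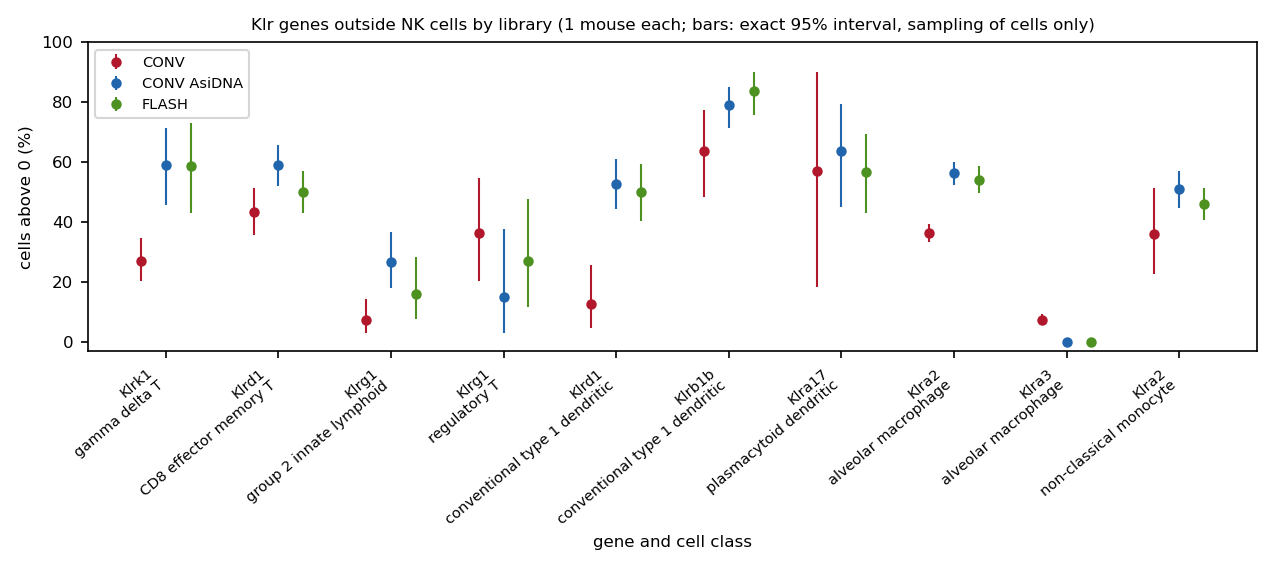
Share of cells above 0 (%) for 10 pairs of a Klr gene and a cell class outside NK cells, in each library (1 mouse each; points are shares, bars exact 95% intervals for the sampling of cells). The CONV interval lies below both others for Klrk1 in gamma delta T cells (27.2% against 59% and 58.7%), Klrd1 in type 1 dendritic cells (12.8% against 52.7% and 50%) and Klra2 in alveolar macrophages (36.3% against 56.4% and 54.3%).

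Klrg2 differed from the rest of the family in its site. Of its 170 positive cells, 123 were epithelial (72.4%), and it was above 0 in 6.8% of epithelial cells after CONV (5.06 to 8.91), 4.69% after CONV AsiDNA (3.4 to 6.29) and 4.37% after FLASH (3.02 to 6.08). The 3 intervals overlapped. Klra6 had its highest share in CD8 effector memory T cells, at 5.13% of the pooled cells, with 2.98% after CONV, 5.24% after CONV AsiDNA and 6.76% after FLASH.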

How the data were processed

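Droplet single-cell RNA-seq values of 3 irradiated lungs were analysed. Per the submitters' processing notes, reads were counted with Cell Ranger 6.0.0 on mm10. The authors deposited the natural log (ln) of 1 + a whole number for each gene and cell, adjusted by a procedure not given in the sources used here, and the whole numbers were recovered (adjusted counts). No doublet caller was run, and cells that passed a second lineage gate were counted.

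Cells were gated on marker genes without Klr genes, and the minimum numbers of markers were set with the tables in hand. Members and lists were chosen with earlier results of these data known. By the rule for named genes, every member was accounted for, and the 2 genes of each pathway list with the largest log2 ratio of adjusted CPM + 10 in NK cells were named if their sum reached 20. The exact interval, and the 2-fold rule as rewritten for the test, were tested on simulated counts. The gates, the thinning and the gene lists were not tested in this way. Alternatives covered the gate, second-lineage cells, scaling, pseudocount, minimum sum, threshold and thinning to 1000 adjusted counts. The authors' comparisons (fold changes and p-values) and 12 per-sample columns of 4 other tables were not used. Python 3.11.15, numpy 2.4.6, scipy 1.17.1, pandas 2.3.3 and matplotlib 3.10.9 were used.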

Additional observations from a re-analysis of the deposited data

How the results depend on the processing

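No paired analysis was possible because each condition has 1 library. Of the recomputed library values and counts of members in the planned results, 110 stayed within their interval or 1.5 times the count and 58 did not. Thinning and the threshold of 2 adjusted counts can only lower a share. A share that left its interval in this way says nothing on the comparison between libraries. The cause of the other changes was not tested. The place of CONV among the 3 libraries changed in 4 of the planned results. It was no longer lowest for Klrd1 in CD8 effector memory T cells when thinned, nor for the mean number of Klra genes in NK cells with Eomes above 0. It was no longer highest for Klrk1 in CD8 effector memory T cells at a threshold of 2 adjusted counts. For Klra17 in plasmacytoid dendritic cells CONV was between the others, highest with 1 marker more (66.7%), and lowest without cells of a second lineage (25%) and when thinned. For the family level in NK cells, 1 marker more gave 8516 adjusted CPM for CONV and 11370 for CONV AsiDNA, the gate on Ncr1 gave 11296 for FLASH, and scaling by the median gene ratio gave 10406 for FLASH. In NK cells with Eomes above 0, an alternative added after seeing the data, the family levels were 9746, 11509 and 11460 for CONV, CONV AsiDNA and FLASH. In NK cells without Itga1, Cxcr6, Il7r or Rora, added likewise, they were 9096, 11599 and 11486.

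Members past 2-fold below CONV AsiDNA were 2 of 19 among the cells with Eomes above 0, beside 19.6% of all genes, and 2 of 20 among the cells without the 4 resident genes, beside 16.3%. Members past 2-fold above CONV AsiDNA were 0 of 17 at a minimum sum of 50 (2.28% of all genes) and 2 of 20 with median gene ratio scaling (3.8%). Members past 2-fold above FLASH were 1 of 19 in the Eomes alternative (6.68% of all genes), 1 of 20 in the resident gene alternative (3.83%) and 1 of 17 at a minimum sum of 50 (2.49%), and 0 of 19 were past 2-fold in CONV AsiDNA above FLASH among cells with Eomes above 0 (3.12%).

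The mean number of Klra genes per NK cell was 2.62, 2.83 and 2.62 in cells with Eomes above 0, and 2.37, 2.78 and 2.55 without the resident genes. It was 1.12, 1.80 and 1.55 when thinned, and 1.14, 1.92 and 1.81 at a threshold of 2 adjusted counts. Thinned, in the order CONV, CONV AsiDNA and FLASH, Klrd1 in CD8 effector memory T cells was at 24.4%, 34.3% and 21.7%, Klrk1 there at 23.2%, 17.6% and 19.8%, Klra17 in plasmacytoid dendritic cells at 0%, 33.3% and 20.0%, and Klra2 in alveolar macrophages at 7.59%, 13.9% and 15%. Klrg1 in group 2 innate lymphoid cells was at 2.08% for CONV and 14.9% for CONV AsiDNA. At a threshold of 2 adjusted counts, Klrd1 was at 25.0%, 38.6% and 27.5%, Klrk1 at 25.6%, 22.9% and 26.1%, Klra17 at 14.3%, 30.3% and 13.3%, and Klra2 at 7.69%, 17.0% and 19.5%. Klrg1 was then at 11.7% for CONV AsiDNA and 5.36% for FLASH.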
